A study of Homo sapiens with 12 samples.

Results

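The nuclear factor I genes NFIA, NFIB, NFIC and NFIX encode a family of 4 paralogous transcription factors. AGO2 binding at these genes was read from 2 lists of eCLIP regions, by taking every region that overlapped the RefSeq span of a member on the strand of the gene. This gave 18 regions, 3 of the 1190 in the WT list and 15 of the 2921 in the 5xA list. NFIC held 2 WT and 13 5xA regions, NFIX held 1 in each list, NFIA held 1 in the 5xA list, and NFIB held none. The genes and their regions were chosen from these lists, so the numbers and positions below are descriptions and no test was made of them.

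eCLIP joins proteins to the RNA they touch with ultraviolet light, pulls one protein down with an antibody and reads the RNA that comes with it. HCT116, a long-established line of human colorectal carcinoma cells, was used, with 48 h of culture, a dose of 400 mJ/cm2, and anti-FLAG antibody for all immunoprecipitations (IPs). The 12 samples were an input and an IP, in duplicate, for AGO2_KO cells, in which AGO2 is knocked out, for FH-AGO2_WT cells with tagged wild-type AGO2, and for FH-AGO2_5xA cells with a tagged AGO2 whose cluster of phosphorylated residues is changed to alanine. The comparison of the tagged forms asked which RNA sequences each one binds. Each list stands for both IP replicates of its genotype, so there is no spread between replicates to set a difference against, and no read depth is known for a region. As a whole, with regions in and outside genes, the 5xA list held 2.45 times the regions of the WT list and 2.35 times the bases. The numbers at single genes are read beside these ratios. Whether the tagged lines also lack their own AGO2, and whether each is 1 clone, the sources used here do not say. Nor was the amount of each mRNA analysed here, so weaker binding and less mRNA cannot be told apart. Of 14 markers of colorectal epithelium, CLDN4 (2 WT regions and 1 5xA region) and VIL1 (1 5xA region) were in the lists. Of 7 fibroblast markers only COL1A1 was in them (2 WT and 4 5xA regions), and of 6 blood markers none was. Over all protein-coding genes 3.35% held a WT region and 7.44% a 5xA region. Genes of unknown strand were counted on either strand there, as among these markers. A list of bound regions does not measure expression, so these counts say nothing of the identity of the line.

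Nuclear factor I proteins bind DNA as dimers, as homodimers or as heterodimers of the family, and can activate or repress transcription. Their DNA-binding domain is related to the MH1 domain of the SMAD proteins. NFIA is known for its role in glial differentiation and in blood cell fate, NFIB for lung and brain development, NFIC for tooth root formation, and NFIX for brain and muscle development. AGO2 carries a miRNA that pairs, mainly through its seed (bases 2 to 8), with sites that lie mostly in the 3' UTR of an mRNA. Members of the family are reported miRNA targets in blood cells, NFIA of miR-223 and miR-424 and NFIB of miR-21. These mature sequences, with miR-16, which has the seed of miR-424, are shown 5′ to 3′ from RefSeq (GRCh38.p14) with the seed in capitals, because the precursor genes of some, and not of others, held a region in these cells:
miR-223-3p: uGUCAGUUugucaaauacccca
miR-424-5p: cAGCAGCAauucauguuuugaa
miR-16-5p: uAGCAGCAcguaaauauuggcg
miR-21-5p: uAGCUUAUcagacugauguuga

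The gene of miR-21, MIR21, held 1 region in each list (WT from 59841270 to 59841338 and 5xA from 59841269 to 59841338 of chromosome 17). The seed AGCAGCA is shared by miR-424-5p and miR-16-5p. MIR16-1 held 1 region in each list, while MIR16-2 and MIR424 held none. MIR223 held none in either list. These 4 miRNAs were chosen after the lists had been seen. No genome sequence was used here, so matches to their seeds inside the regions of the family were not searched.

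NFIC was the member with most regions in both lists. The gene spans 3359630 to 3469217 on the plus strand of chromosome 19 (hg38), 110 kb, with 1 annotated start, and no other gene of the RefSeq table overlaps it. Its WT regions were chr19:3464020-3464175, 156 bases wide, and chr19:3465450-3465550, 101 bases wide. They lay 1274 bases apart and covered 257 bases. Its 13 5xA regions began at chr19:3463025 and ended at chr19:3466385, and covered 2019 bases. The number was 6.5 times that of the WT list and the covered bases 7.86 times. The whole family had a single region outside NFIC in the WT list and a pair in the 5xA list, so NFIC supplied 86.7% of the family's 5xA regions.

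The 5xA regions of NFIC formed 1 dense group. It stretched over 3361 bases, 3.07% of the gene, and the regions covered 60.1% of that stretch. The 103395 bases of the gene before the first region held none in either list, and neither did the last 2832 bases. In gene order, the first 3 regions (3463025 to 3463211, 3463224 to 3463485 and 3463645 to 3463794) lay upstream of both WT regions. The second of them was the widest of the group at 262 bases. The fourth (3463920 to 3464100, 181 bases) and the fifth (3464103 to 3464175, 73 bases) both met the first WT region and were 2 bases apart. The fifth ended at the same base as that WT region, at 3464175. Together they covered 154 of its 156 bases, so that 1 WT region corresponded to a pair of 5xA regions. Over the whole WT list, 30 of the 967 shared regions (3.10%) met 2 or more 5xA regions, and 143 (14.8%) had an edge at the same base.

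The sixth to ninth regions (from 3464315, 3464677, 3465013 and 3465192) lay between the WT regions and met neither. The tenth (3465484 to 3465597) met the second WT region over 67 bases, 66.3% of the WT region's width. The last 3 (3465631 to 3465802, 3465957 to 3466153 and 3466256 to 3466385) lay downstream of it. The WT regions therefore sat inside the stretch of the 5xA group, with 3 unmatched 5xA regions on the upstream side, 4 between them and 3 on the downstream side.

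**Figure D1:**
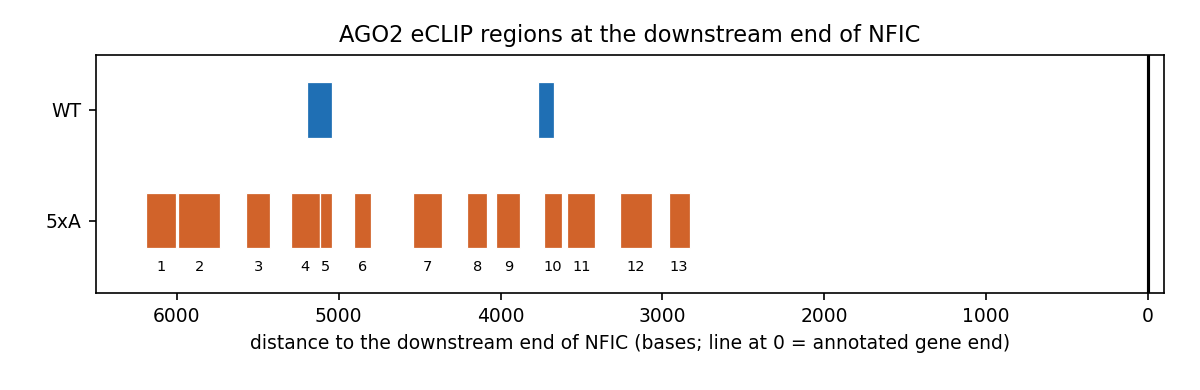
Regions of the WT list (blue, upper row) and of the 5xA list (orange, lower row, numbered in gene order) in NFIC, drawn to scale by distance in bases to the annotated downstream end of the gene (line at 0). The 2 WT regions lie inside the stretch of the 13 5xA regions, and the last 2832 bases hold no region.

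Of the 13 NFIC regions of the 5xA list, 3 overlapped a WT region (23.1%), beside 32.3% of all 5xA regions, and 10 did not. The 10 unmatched regions had a median width of 161 bases and the 3 matched ones 114 bases. In the whole 5xA list the order was the other way, at 93 bases for regions found with 5xA only and 145 bases for shared ones. The 3 matched widths in NFIC were 181, 73 and 114 bases. The first 2 belong to the pair that lay 2 bases apart over 1 WT region. The order in NFIC thus rests on 3 regions and depends on keeping such close regions apart. Of the 13 NFIC regions, 11 were wider than the list median of 104 bases, and their own median was 150 bases.

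The gaps between neighbouring NFIC regions of the 5xA list ranged from 2 to 260 bases, with a median of 132 bases. Of these 12 gaps, 3 were of 50 bases or less, beside 23.1% of the gaps between neighbouring 5xA regions over all genes. Another 7 lay between 100 and 160 bases, a range for which no share over all genes was computed. The median over 962 gaps between neighbouring 5xA regions of a protein-coding gene was 217 bases (quartiles 56 and 761.5), and 11 of the 12 NFIC gaps were shorter than this. Only the gap between the sixth and seventh regions, at 260 bases, was longer. Other genes of known strand with 9 or more 5xA regions had median gaps on both sides of that of NFIC. The median was shorter, at 22.5 to 116 bases, in PKD1, MKNK2, NACC1, MIDN, ZBTB34, NACC2, ANKRD52 and ZC3HAV1L. It was longer, at 156.5 to 505 bases, in KMT2D, KDM6B, CBX6, TET3, MTCL2, ZBTB20, HIC2 and TNRC6A.

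**Figure D2:**
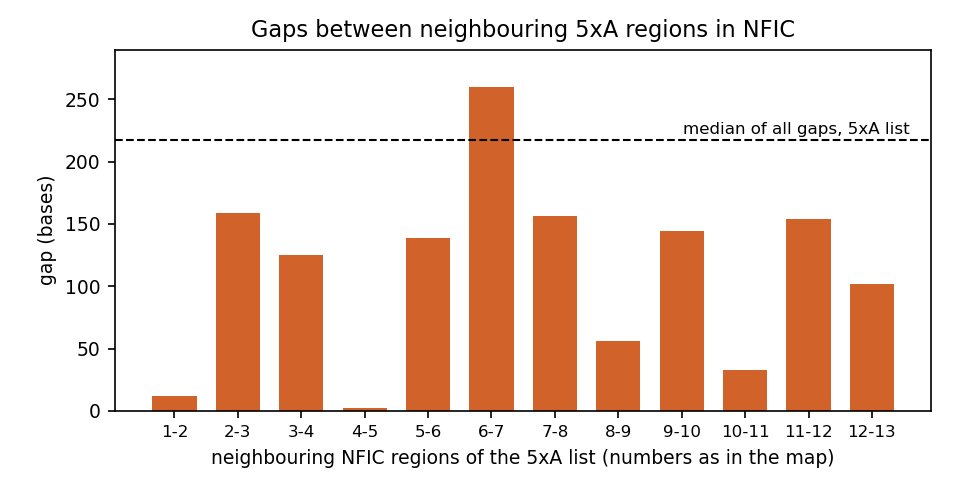
Gap in bases between each pair of neighbouring 5xA regions in NFIC, in gene order, with the dashed line at 217 bases, the median of all such gaps in the 5xA list. Of the 12 gaps, 11 lie under the line, and the widest, 260 bases, separates regions 6 and 7.

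Among 15842 protein-coding genes whose strand is given in the promoter table, 3.44% held a WT region and 7.66% a 5xA region. In the family 2 of 4 members held a WT region and 3 of 4 a 5xA region. In both lists were 2 of 4, beside 3.06% of all genes, and more 5xA than WT regions were held by 2 of 4, beside 6.12%. The choice of members used these lists, so nothing is read from these differences. All 4 members are over 100 kb long, and of the 2761 genes of at least that length 2.75% held a WT region and 6.81% a 5xA region. Most bound genes held a single region, 69.7% of the 545 in the WT list and 63.9% of the 1214 in the 5xA list. NFIA and NFIX were of this kind. A lone 5xA region with no WT region, as in NFIA, was found in 585 genes, and 1 region in each list, as in NFIX, in 170 genes.

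NFIC stood at the upper end of the genes with a strand. The 4214 protein-coding genes without one were not ranked. In the 5xA list only TET3 (17 regions) and CBX6 (14 regions) held more than its 13, while in the WT list 62 genes held more than its 2. The 103 genes with 2 WT regions had a median of 2 5xA regions (quartiles 2.0 and 3.5), and the next highest after NFIC held 8. Of the 485 genes with a region in both lists, 49.7% held more in the 5xA list, and NFIC was among them. Its excess of 11 regions was the largest among the 1274 genes with a strand and a region in either list. CBX6 was next at 10, then ZBTB20 at 8. When regions within 50 bases were joined, an alternative chosen after seeing the data, NFIC had an excess of 8 and came after CBX6 at 9.

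**Figure D3:**
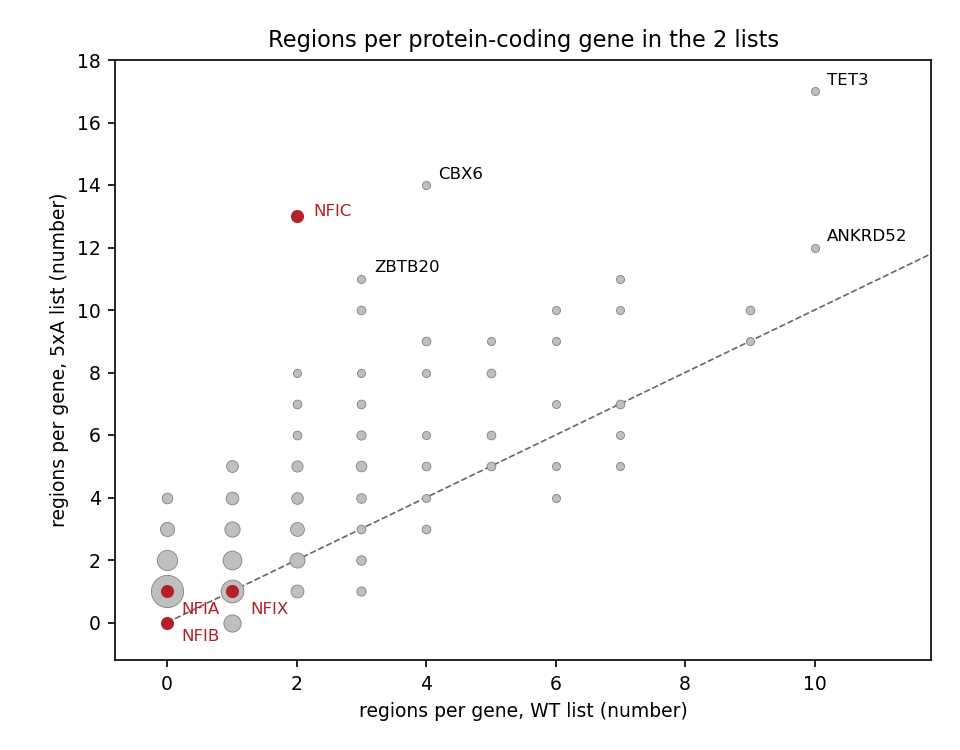
Number of regions per protein-coding gene of known strand in the WT list (x axis) and in the 5xA list (y axis). Grey points are genes with a region in either list, larger where more genes share a place, red points are the nuclear factor I genes, and the dashed line marks equal numbers. NFIC, at 2 and 13, lies farthest above the line.

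The genes most like NFIC were taken, among genes with a strand, as those with the smallest summed difference in the numbers of the 2 lists. They were CBX6 (4 WT and 14 5xA regions), which encodes a Polycomb protein, the zinc finger genes ZBTB20 (3 and 11) and ZBTB34 (3 and 10), MTCL2 (3 and 10) and ITPRIPL2 (2 and 8). Their layout varied. The 10 5xA regions of ZBTB34 lay within 3995 bases with a median gap of 97 bases, a close group like that of NFIC. The 5xA regions of CBX6 stretched over 5241 bases and covered 47.1% of them, and those of ZBTB20 stretched over 23266 bases and covered 5.55%. With 13 regions inside 5 kb, NFIC and CBX6 had the densest 5xA groups by number among genes with a strand, followed by ANKRD52 with 12. The CBX6 group reached to 49 bases from the downstream gene end, whereas that of NFIC stopped 2832 bases before it. In ITPRIPL2 the regions also kept away from the annotated end, at 3162 to 7361 bases from it. That gene is far shorter than NFIC, from 19113964 to 19121629 of chromosome 16, and its farthest region lay near its upstream end.

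NFIX lies on the same chromosome and strand, from 12995475 to 13098796, 103 kb long with 5 annotated starts. Its WT region was chr19:13096588-13096714 (127 bases) and its 5xA region chr19:13096514-13096661 (148 bases). They overlapped by 74 bases, 58.3% of the WT width, and 74 of the 148 bases of the 5xA region. Both lay near the downstream gene end, at 2082 and 2135 bases from it. The nearest regions outside the gene on its strand lay downstream in NACC1, 19.5 kb away in the 5xA list and 40.0 kb away in the WT list. The antisense lncRNA gene NFIX-AS1 lies inside the span and held no region.

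NFIA spans 61077227 to 61462788 on the plus strand of chromosome 1, 386 kb, with 3 annotated starts. Its single region, chr1:61457716-61457793 in the 5xA list, was 78 bases wide, beside a median of 93 bases for regions found with 5xA only. It lay 4995 bases from the downstream gene end. The nearest WT region on this strand was 3.77 Mb downstream of the gene, in AK4. The reported NFIA regulators shown above were not matched to this region, for want of sequence.

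NFIB spans 14081843 to 14532077 on the minus strand of chromosome 9. At 450 kb it is the longest member and has the most annotated starts, 10. It held no region in either list and on neither strand. The nearest regions on its strand lay upstream of the gene, 19.6 Mb away in DCAF12 with WT and 20.6 Mb away in ATOSB with 5xA. The 5 other annotated genes inside its span, among them NFIB-AS1, held none either. A list shows only regions that passed the authors' threshold, so binding below it was not detectable here.

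Most of the 694 WT and 1753 5xA regions in protein-coding genes of known strand over 10 kb lay in the downstream part of the gene. So did all 18 regions of the family. Their midpoints were between 94.4% and 98.7% of the way from the upstream to the downstream gene end. They lay 2082 to 6006 bases from that end. In genes over 100 kb such distances are a small percent of the length, and these percentages were not computed over all genes. Within 5 kb of the downstream end lay 2 of 3 WT regions and 10 of 15 5xA regions. This is beside 82.4% of WT and 80.2% of 5xA regions in protein-coding genes over 10 kb. Within 10 kb lay all 3 and all 15, beside 89.0% and 87.2%. None lay within 2 kb, 0 of 3 and 0 of 15, beside 58.6% of WT and 56.0% of 5xA regions. The median distance over all such regions was 1540 bases in the WT list and 1637 bases in the 5xA list, and each region of the family lay farther from its gene end than the median of its list. Since 13 of the 15 5xA regions come from 1 gene, these shares mostly describe NFIC. The table gives gene spans without exons, so the regions could not be placed in coding sequence or 3' UTR.

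**Figure D4:**
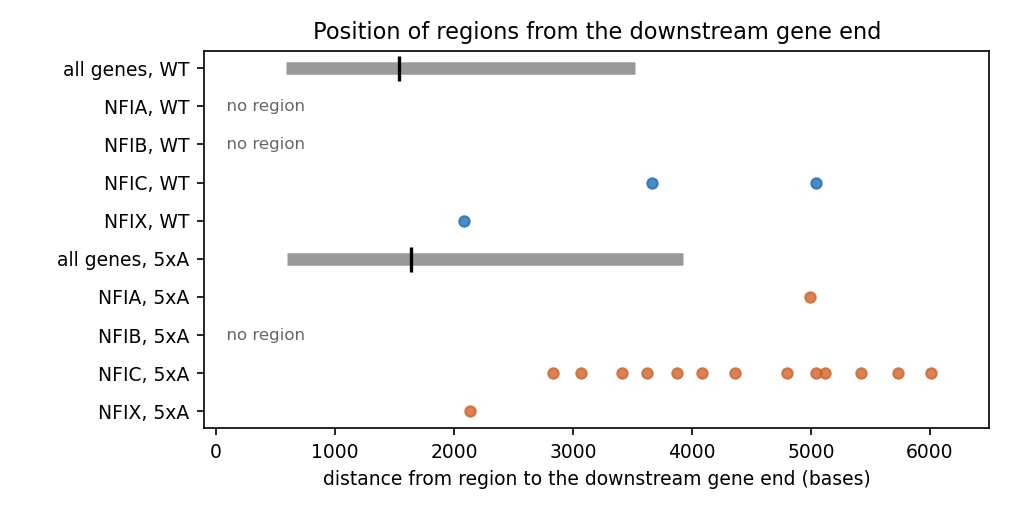
Distance in bases from each region to the downstream end of its gene, for the members in the WT list (blue) and the 5xA list (orange). Grey bars give the quartiles and black ticks the median (1540 bases with WT, 1637 bases with 5xA) over all regions in protein-coding genes over 10 kb. Every point lies to the right of its list's median.

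Every WT region of the family overlapped a 5xA region, 3 of 3 (exact 95% Clopper-Pearson interval 29.2 to 100%), beside 81.3% of the WT list. Of the family's 5xA regions 4 of 15 overlapped a WT region (26.7%, 7.79 to 55.1), beside 32.3% of the 5xA list. The intervals cover counting error only and treat neighbouring regions as independent, which they are not, so they serve as a description and not as a test. Under the stricter rule of a reciprocal overlap of 50%, 2 of 3 WT and 2 of 15 5xA regions were shared (66.7% and 13.3%), beside 67.0% and 27.3% of all regions by the same rule. The first WT region of NFIC and the pair of 5xA regions that met it were those that no longer counted.

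Genes of other transcription factor families were counted in the same way, except that those without a strand were counted on either strand. These small counts are to be set beside 3.44% (WT) and 7.66% (5xA) of the 15842 protein-coding genes with a strand. With genes of unknown strand counted on either strand, the shares were 3.35% and 7.44% of all protein-coding genes. Of the 8 SMAD genes, which encode proteins of TGF-beta and BMP signalling, none held a region in either list. Of 9 genes of the CEBP and NFY families only CEBPA held a region, 1 in the 5xA list of 70 bases, 285 bases from the downstream gene end. Of the TEAD, MEF2, PBX and NFATC families, which also have 4 members each, only MEF2D held a region, 1 in the 5xA list of 88 bases. Thus 1 of these 16 genes held a 5xA region and 0 of 16 a WT region, beside 7.44% and 3.35% of all protein-coding genes. Among 8 genes linked to nuclear factor I proteins in other tissues, SOX9, a partner of NFIA in glial cells, held 1 5xA region of 68 bases, counted on either strand since the promoter table gives none for it. CDKN1A, the gene of a CDK inhibitor, held 6 WT and 4 5xA regions, so that here the number was lower with 5xA, while the covered bases were 1049 with WT and 1349 with 5xA. FOXA1, MYB, EZH2, HES1, GFAP and FABP7 held none.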

How the data were processed

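The data were 2 deposited region lists on hg38, and the submitters' processing notes name cutadapt 1.9.1 and TopHat2. How peaks were called and merged, at which threshold and with which controls, is not given in the sources at hand. Both IP replicates of a genotype share 1 list, per the labels. The deposited score is 0 in every row, so it ranked nothing. The other 8 samples were not analysed here.

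Gene spans came from RefSeq (GRCh38.p14) and gene strands from its promoter table, which held 15842 of 20056 protein-coding genes, all 4 members included. Listed comparison and marker genes without a strand were counted on either strand, and 1 listed gene is not reported here. A region counted as shared from 1 base of overlap on its own strand, computed in Python 3.11.15 and checked with bedtools 2.31.1. Distances run from the downstream edge of a region to the gene end. Intervals are exact 95% Clopper-Pearson intervals (scipy 1.17.1). On simulated lists the planted number was recovered in 200 of 200 genes. Only regions planted for that gene on its strand were counted, so the check could show lost regions but not extra ones.

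Text names all members, bound genes of the comparison lists and the 5 genes nearest to NFIC in region numbers, ties by 5xA bases. Genes with many regions, miRNAs and the nearest outside regions were added after seeing values. Members and lists were chosen with earlier results of these data known. Alternatives changed the joining of regions, minimum width, overlap rule, strand, gene span and gene end window.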

Additional observations from a re-analysis of the deposited data

How the results depend on the processing

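The family held 3 WT regions under every alternative tried, and 12 to 15 5xA regions, with 12 when regions within 50 bases were joined and 14 when only regions of at least 75 bases were kept. Extending the spans by 5 kb, ignoring strand or leaving out regions in other genes moved neither number. The counts near the downstream gene end depended on the window, since 0 WT and 0 5xA regions lay within 2 kb. The median spacing in NFIC was 270.2 bases between midpoints and 144 bases after joining. Genes without a strand, counted on either strand, put 3.35% and 7.44% of protein-coding genes in the WT and 5xA lists. No paired analysis was possible because each list pools its replicates, and for the same reason no replicate could be left out. Placement in the last exon or 3' UTR and the search for seed matches were not run, as no exon annotation or genome sequence was used here. The depth behind the regions is unknown.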
